A study of Mus musculus with 21 samples.

Results

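The Slco genes encode the organic anion transporting polypeptides, membrane carriers that take amphipathic compounds such as bile acids, steroid conjugates, thyroid hormones and prostaglandins into cells without using the sodium gradient. In the brain, members of the family are best known at the blood-brain barrier and the choroid plexus, and in epithelia Slco2a1 clears prostaglandins from the extracellular space so that they can be broken down inside the cell. This report follows 5 members, Slco1a5, Slco1a6, Slco2a1, Slco3a1 and Slco4a1, through the adaptation of a mouse mammary tumour line to foreign tissues. They are 5 of 19937 genes with a probe set of their own, among them 15 Slco genes, and the arrays hold 34760 probe sets in all. A gene with several probe sets would be read from the one with the highest mean over the 21 arrays, and each member had 1. The 5 genes were selected on earlier results of these arrays, among them the low log2 level of Slco1a5 against parental cells at the first passage on bone marrow and on lung. Those levels of Slco1a5 are therefore given as a description, without a test. Bulk RNA cannot tell fewer cells with a transcript from less transcript per cell.

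The cells were N202, a line from a mammary tumour of a Her-2/neu transgenic mouse, expressing a green fluorescent H2B-GFP fusion by which they were sorted. Spheroids were grown on minced, revascularised tissue in the dorsal skinfold chamber of a mouse, 21 days for each passage, with selection in G418 and growth in culture between passages. RNA was taken from the cultured cells, so each value describes tumour cells after removal from the tissue. The groups were cells adapted to brain at P1, P2, P3 and P4 (2 arrays each, the second labelled a technical replicate), cells of a second adaptation to brain at P1 and P2 (1 array each), cells adapted to bone marrow at P1 to P4 (1 array each), cells adapted to lung at P1 to P4 (1 array each), cells grown once on breast tissue (P1, 1 array) and, as the comparison, parental cells never placed on a tissue (P0, 2 arrays). All 16 groups descend from the same line and all carry H2B-GFP. The 2 arrays of a brain passage stem from separate cultures of 1 adapted line, so the p-values measure the spread between cultures, and a group of 1 array borrows its spread from the 5 groups that have 2. Bone marrow and lung each have 1 series of passages, so tissue cannot be told apart from adapted line. All comparisons with P0 share the same 2 parental arrays. The low levels by which Slco1a5 was chosen were also set against them, so its calls against P0 are not independent of that choice.

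The values are log2 expression values made with RMA, so a difference of 1 is a 2-fold change. A gene was called when its adjusted p in limma was under 0.05. Slco1a5, Slco2a1 and Slco3a1 passed the filter on dim probe sets, which kept those with a mean of at least 7.33 in some group, and were tested among those. Slco1a6 and Slco4a1 lay below 7.33 in all 16 groups and were tested among all 34760 probe sets. Slco1a5 passed the filter only through the groups in which it was high, and its low values lie well below 7.33, where probe signals flatten, so the sizes of its changes are uncertain. The 10th percentile of all probe sets, a measure of an array's floor, lay between 2.89 and 3.39 on 5 arrays (the second arrays of brain P1 to P4, and lung P1) and between 2.45 and 2.78 on the other 16 arrays. The labelled cell type was borne out by its markers: 7 of 8 mammary tumour cell markers reached 7.33 on at least 1 array, with Krt8 at 12.35 to 13.21 and Krt18 at 12.29 to 12.96. Of markers of other cell types, none of 7 neuron, 6 lung epithelium or 7 fibroblast genes reached 7.33 on any array. Aldoc (6.55 to 10.51) and Mbp (6.66 at its lowest) of 7 glial genes, Folr1 (6.24 to 8.37) of 8 endothelial and choroid plexus genes and Cd68 (5.90 to 8.48) of 6 haematopoietic genes did, whereas Cldn5, which defines endothelium, stayed between 4.42 and 5.76 and Csf1r, which defines macrophages, between 4.38 and 5.69.

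Promoter windows of Slco1a5 and Slco2a1 are shown because these were the only members with called changes. RefSeq (GRCm38.p6) gave a window of 300 bases, from 250 before to 50 after a start site, for 4 of the 5 members, and for Slco1a5 there were 2 of them, both on the minus strand of chromosome 6. Capitals mark matches, on either strand, to the TATA box (TATAAA), the CCAAT box (CCAAT), the GC box (GGGCGG), the E-box (CACGTG), the cAMP response element (TGACGTCA) and the AP-1 element (TGANTCA).
Slco1a5, chr6:142322932-142323231: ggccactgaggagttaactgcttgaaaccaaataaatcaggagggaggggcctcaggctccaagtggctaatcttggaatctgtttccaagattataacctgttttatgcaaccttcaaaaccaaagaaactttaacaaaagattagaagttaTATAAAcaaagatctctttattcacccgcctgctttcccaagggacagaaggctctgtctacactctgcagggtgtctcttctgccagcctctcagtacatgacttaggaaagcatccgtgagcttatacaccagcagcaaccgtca
Slco1a5, chr6:142278825-142279124: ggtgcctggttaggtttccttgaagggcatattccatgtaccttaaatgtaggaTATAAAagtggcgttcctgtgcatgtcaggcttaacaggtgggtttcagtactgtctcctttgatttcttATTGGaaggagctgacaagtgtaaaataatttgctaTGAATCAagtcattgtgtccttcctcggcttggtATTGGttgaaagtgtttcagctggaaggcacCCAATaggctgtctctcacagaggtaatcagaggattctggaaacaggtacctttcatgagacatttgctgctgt
Slco2a1, chr9:103008237-103008536, plus strand: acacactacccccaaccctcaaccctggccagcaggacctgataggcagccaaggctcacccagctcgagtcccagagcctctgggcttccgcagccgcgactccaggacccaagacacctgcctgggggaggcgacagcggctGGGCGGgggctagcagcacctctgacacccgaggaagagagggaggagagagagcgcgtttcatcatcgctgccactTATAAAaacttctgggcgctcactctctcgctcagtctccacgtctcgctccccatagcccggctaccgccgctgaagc
The Slco2a1 window holds a TATA box match that begins at position -29 from the start site and a GC box match at -106. The upstream Slco1a5 window holds 1 TATA box match, at -97, and no match to the other 5 motifs. The downstream one holds a TATA box match at -196, CCAAT matches at -126, -56 and -25 and an AP-1 match at -90. The AP-1 match counts on both strands because the pattern, though not the matched run itself, reads the same on each. Among 32851 mouse windows of this length, 13.6% held the TATA box, 37.4% the CCAAT box, 35.7% the GC box, 7.15% the E-box, 1.79% the cAMP response element and 7.81% the AP-1 element. A match is a run of letters and not a site shown to be used. The probe set of Slco1a5 gives 1 value per array, so the start in use in these cells was not tested.

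Slco1a5, a carrier of bile acids and thyroid hormones in mouse brain, kidney and gut, fell in cells of late brain passages and was at its lowest on bone marrow. Its level was 7.09 and 7.83 at brain P1, 8.26 and 8.27 at P2, 4.36 and 5.01 at P3, and 4.75 and 5.36 at P4, against 8.66 and 8.14 in P0 cells. The arrays thus fell into a high pair of passages near the parental level and a low pair, with no overlap between P1 or P2 and P3 or P4. The change against P0 was -0.94 ± 0.34 (SE) at P1 (adjusted p = 0.16) and -0.14 ± 0.34 at P2 (0.85, 95% interval -0.90 to 0.63), neither of them called. At P3 it fell, with a change of -3.71 ± 0.34 or a 13.1-fold lower level (adjusted p = 0.0022), and likewise at P4, with -3.34 ± 0.34 or a 10.1-fold lower level (0.0036). Among all kept probe sets, 4.71% were called at P1, 11.3% at P2, 0.599% at P3 and 0.931% at P4, all against P0. Without the 5 arrays with the highest floor, which leaves a lone array at each brain passage, the changes of Slco1a5 at P3 and P4 were -4.03 and -3.65 and were no longer called (adjusted p = 0.15 and 0.12). The P4 call also rested on the filter, which Slco1a5 passed through its high groups: with all probe sets tested the adjusted p was 0.071 at P4 and 0.048 at P3.

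**Figure D1:**
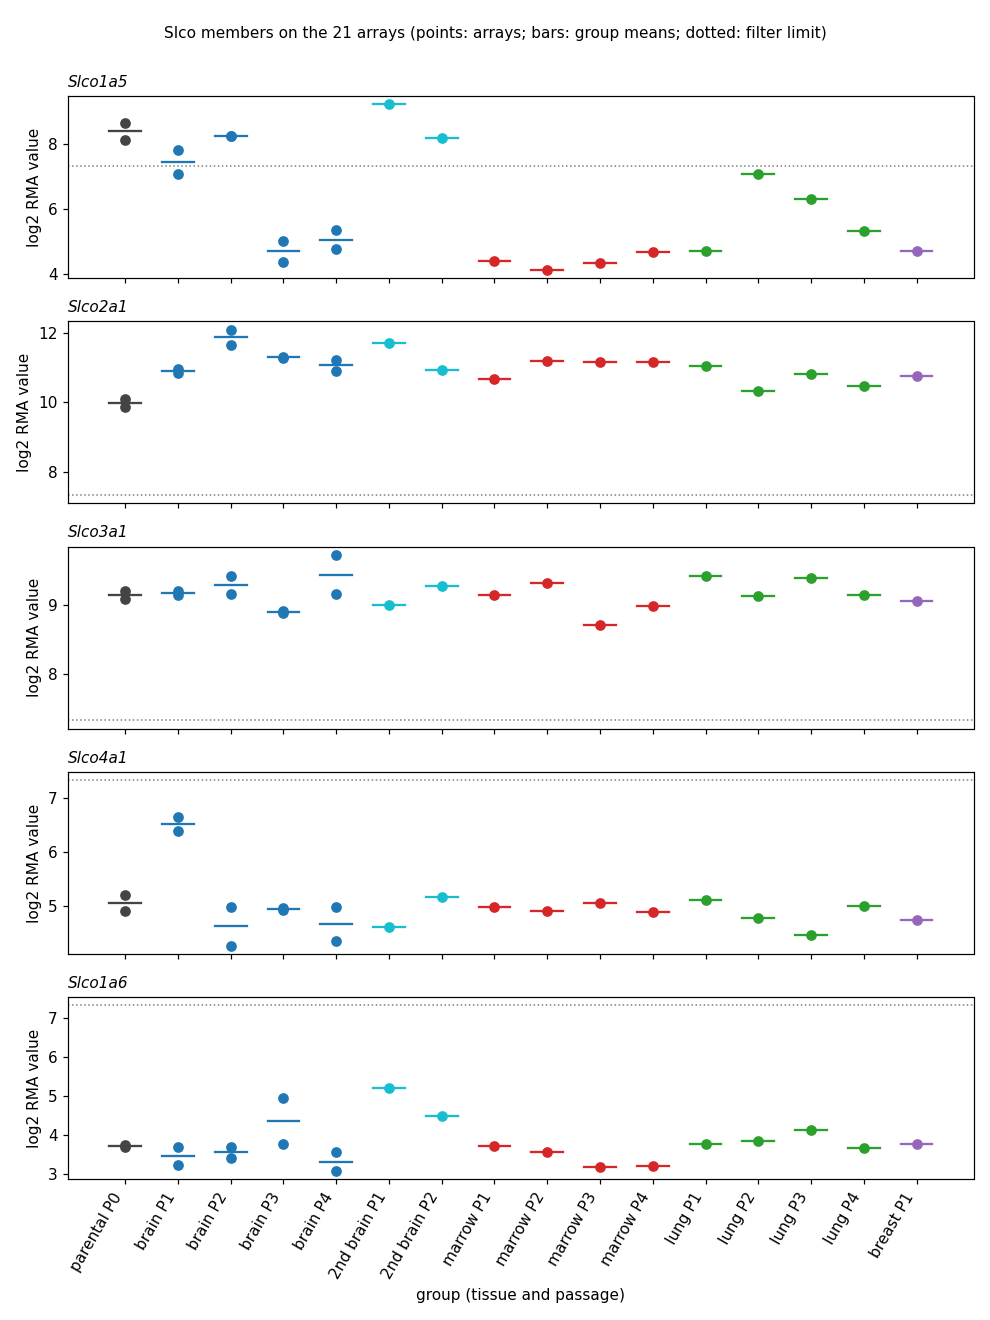
Log2 RMA values of the 5 members (one panel each, log2 scale on the y axis) in the 16 groups on the x axis, from parental P0 cells through the brain, second brain, bone marrow, lung and breast groups; points are arrays, bars are group means and the dotted line is the filter limit of 7.33. Slco1a5 stands between 7.09 and 9.23 in P0 and early brain cells and between 4.12 and 5.36 in late brain, marrow and breast cells, Slco2a1 is at its lowest in P0, and Slco4a1 is high only at brain P1.

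The drop lay between P2 and P3. Slco1a5 changed by -3.58 ± 0.34 at P3 relative to P2, an 11.9-fold lower level (adjusted p = 0.00039), a comparison in which 20.8% of the kept probe sets were called. The steps on either side were smaller: P2 relative to P1 gave 0.80 ± 0.34 (adjusted p = 0.26; 1.57% called) and P4 relative to P3 gave 0.37 ± 0.34 (0.61; 0.542% called). Averaged, late brain cells (P3 and P4) differed from early brain cells (P1 and P2) by -2.99 ± 0.24, a 7.95-fold lower level (adjusted p = 8.4e-05), and 23.9% of the kept probe sets were called there. Slco1a5 was called in that average under each of the 18 alternatives tried, with values between -3.18 and -2.81. The step from P2 to P3 was called under 13 of 14, and was lost without the 5 arrays with the highest floor (-3.90, adjusted p = 0.069).

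On bone marrow, Slco1a5 was low from the first passage on. Its level was 4.39 at P1, 4.12 at P2, 4.32 at P3 and 4.66 at P4, each far below the lower of the parental arrays. At P1, one of the levels known when the members were chosen, its difference from P0 was -4.01. It fell against P0 at each later passage, with changes of -4.28 ± 0.41 at P2 (adjusted p = 0.0063), -4.08 ± 0.41 at P3 (0.006) and -3.74 ± 0.41 at P4 (0.011), and over P2 to P4 together, a comparison added after the data were seen, the change was -4.03 ± 0.31, a 16.4-fold lower level (0.00069). Few other probe sets were called on bone marrow, 0.105% at P1, 0.162% at P2, 0.266% at P3, 0.238% at P4, 0.428% over P2 to P4 and 0.371% over P1 to P4. Without the 5 arrays with the highest floor, none of them from bone marrow, Slco1a5 missed the threshold over P2 to P4 (adjusted p = 0.053). With all probe sets tested, the pooled fall was still called (0.018) and those of the single passages were not (0.11 to 0.18 at P2 to P4).

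On lung, Slco1a5 was low at P1 (4.70, a difference from P0 of -3.70, also known beforehand), then 7.09 at P2, 6.31 at P3 and 5.33 at P4. The lung P2 array stood beside the lower of the brain P1 arrays (7.09), and the other 7 marrow and lung arrays lay below it. The change against P0 was -1.31 ± 0.41 at P2 (adjusted p = 1), -2.09 ± 0.41 at P3 (0.38) and -3.07 ± 0.41 at P4 (0.034). Over P2 to P4, again a comparison added later, it was -2.15 ± 0.31 (0.043). Background calls on lung were 0.228% at P1, 0.057% at P2, 0.0475% at P3, 0.124% at P4, 0.171% over P2 to P4 and 0.219% over P1 to P4. Both the P4 call and the pooled call of Slco1a5 were lost when either parental array was left out, to adjusted p = 0.15 and 0.30 without P0 replicate 1 and 0.064 and 0.095 without P0 replicate 2. They were lost under 6 and 7 of 11 alternatives, among them all probe sets tested (0.39 and 0.45), cyclic loess (0.069 and 0.097) and a robust variance trend (0.085 and 0.12). Over P1 to P4 the level on marrow differed from that on lung by -1.49, given without a test because it holds both levels known beforehand; 0.105% of probe sets were called in that comparison.

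On breast tissue, the tissue of origin of the tumour type, the level of Slco1a5 was 4.70 on the single P1 array, a change of -3.70 ± 0.41 from P0 (adjusted p = 0.013), where 0.276% of probe sets were called. That call was lost with all probe sets tested (0.18), without P0 replicate 2 (0.063) and without the arrays of high floor (0.15).

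**Figure D2:**
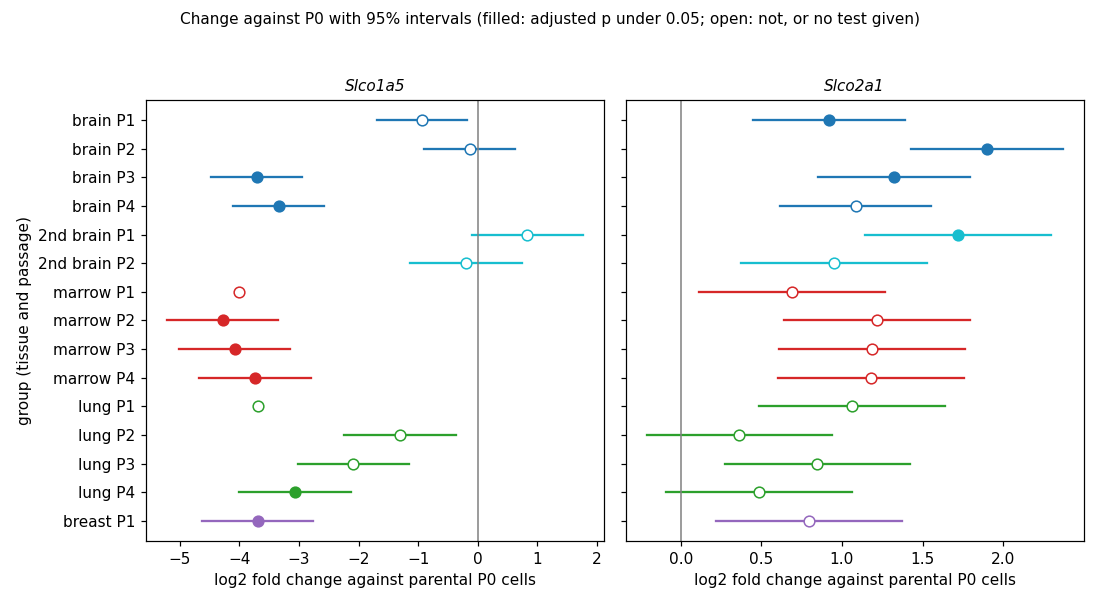
Log2 fold change of Slco1a5 (left) and Slco2a1 (right, on its own x scale) against parental P0 cells for each tissue and passage down the page; lines are 95% intervals, filled points have an adjusted p under 0.05, and the points of Slco1a5 at P1 on marrow and lung carry no interval because they were known when the members were chosen. Slco1a5 lies between -4.28 and -3.34 at brain P3 and P4, on marrow and on breast, and Slco2a1 lies above 0 in all 15 adapted groups.

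The tissues were also compared at the same passage, where tissue cannot be told apart from adapted line. At P2 alone, a comparison also added after the data were seen and free of the levels known beforehand, Slco1a5 was 8.26 and 8.27 on brain against 4.12 on bone marrow and 7.09 on lung, a difference of 2.66 ± 0.34, or 6.32-fold (adjusted p = 0.0022), with 12.6% of the kept probe sets called. The lung array lay nearer to the brain pair than the marrow array did. Over P1 and P2 the brain cells lay 2.79 higher than the marrow and lung cells, given here without a test, and 20.5% of probe sets were called. At P3 and P4, brain cells differed from marrow and lung cells by -0.28 ± 0.24 (95% interval -0.82 to 0.26, adjusted p = 0.67), when 0.038% of probe sets were called. The P2 difference was lost without the arrays of high floor (2.66, adjusted p = 0.069) and held under the other 10 alternatives.

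The second adaptation to brain gave higher levels of Slco1a5 at P1. The single arrays read 9.23 at P1 and 8.20 at P2, against 8.66 and 8.14 in P0 cells, and neither change from P0 was called (0.83 ± 0.41, adjusted p = 0.38, and -0.20 ± 0.41, 0.97). The P1 array of the second experiment lay above both P1 arrays of the first by 1.77 ± 0.41 (adjusted p = 0.04, 6.03% of probe sets called), a call that ended when either first-experiment array was left out (0.16 without brain P1 replicate 1, 0.054 without replicate 2) and under 6 of 11 alternatives in all, with all probe sets tested among them (0.24). At P2 the experiments differed by -0.06 ± 0.41 (adjusted p = 0.95, 95% interval -0.997 to 0.871), where 7.13% of probe sets were called. The second experiment holds no P3 or P4 array here. The paper matched its 2 passages to later points of the first series, the second of them between P3 and P4. It reads this as faster adaptation. On that matching, the single P2 array (8.20) did not show the later drop of the first experiment. Whether the drop came later in the second experiment was not tested.

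In the order of group means, Slco1a5 stood at 9.23 in second brain P1, 8.40 ± 0.37 in P0 (SD, n = 2), 8.26 ± 0.0032 in brain P2, 8.20 in second brain P2 and 7.46 ± 0.52 in brain P1, then at 7.09, 6.31 and 5.33 in lung P2, P3 and P4, and between 4.12 and 5.06 in the other 8 groups. The residual SD of the gene was 0.40. Neighbours in this order differed by less than that from P0 to second brain P2, between brain P1 and lung P2, and from lung P4 down. The other steps, below second brain P1, second brain P2, lung P2 and lung P3, were 0.74 to 0.98.

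Slco2a1, the prostaglandin transporter, was higher in every adapted group than in the parental cells. It read 10.95 and 10.84 at brain P1, 12.09 and 11.66 at P2, 11.28 and 11.32 at P3, and 11.23 and 10.89 at P4, against 10.09 and 9.87 in P0 cells. No adapted array reached down to the parental pair. It rose by 0.92 ± 0.21 at P1 (1.89-fold, adjusted p = 0.042), by 1.90 ± 0.21 at P2 (3.73-fold, 0.0017) and by 1.32 ± 0.21 at P3 (2.5-fold, 0.032), and stood 1.08 ± 0.21 higher at P4, which was not called (0.059). The rise at P2 was lost only when both brain experiments were joined, with the 16 groups as random blocks (1.52), and without the arrays of high floor (2.12). In the joined fit, 0 of all kept probe sets were called at P1 or at P2, so among these that loss was not particular to Slco2a1. Over all probe sets the joined fit did make calls, 419 at P1 and 409 at P2. The rise at P1 was lost under 10 of 15 alternatives, among them without either parental array (0.10 and 0.19) and without either brain P1 array (0.20 and 0.17), and the rise at P3 was likewise lost without either parental array (0.067 and 0.25) and without either P3 array (0.059 and 0.21).

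Between brain passages, the level of Slco2a1 was highest at P2. Relative to P1 it was 0.98 ± 0.21 higher at P2 (adjusted p = 0.056), relative to P2 it changed by -0.58 ± 0.21 at P3 (adjusted p = 0.082), and relative to P3 by -0.24 ± 0.21 at P4 (0.59), none of them called. Late brain cells differed from early ones by -0.21 ± 0.15 (0.34). In the second experiment Slco2a1 read 11.70 at P1 and 10.93 at P2. It rose by 1.72 ± 0.25 at P1 against P0 (3.29-fold, adjusted p = 0.02, 1.35% of probe sets called) and stood 0.95 ± 0.25 higher at P2 (0.46), where 0% of the kept probe sets were called by limma and 741 had an unadjusted p under 0.05. The P1 call was lost without either parental array (0.057 and 0.082). Set against the first experiment, the second differed by 0.80 ± 0.25 at P1 (adjusted p = 0.11) and by -0.95 ± 0.25 at P2 (0.059).

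On bone marrow Slco2a1 read 10.67, 11.19, 11.16 and 11.16 at P1 to P4, on lung 11.04, 10.34, 10.82 and 10.46, and on breast tissue 10.77. All 9 arrays lay above both P0 arrays. Against P0 the marrow passages were 0.69 to 1.22 higher and the lung passages 0.36 to 1.06 higher, none called one by one (adjusted p from 0.16 to 1), and the breast array was 0.79 ± 0.25 higher (0.44). Pooled over P1 to P4 the difference was 1.07 ± 0.18 on marrow (adjusted p = 0.052) and 0.69 ± 0.18 on lung (0.44). Over P2 to P4, a comparison added after the data were seen, it was called on marrow (1.20 ± 0.19, 0.036), and that call was lost without either parental array (0.098 and 0.29). Brain cells exceeded marrow and lung cells by 0.57 ± 0.15 over P1 and P2 (1.49-fold, adjusted p = 0.024), where 20.5% of the kept probe sets were called. At P2 alone, also a comparison added after the data were seen, they did so by 1.11 ± 0.21 (2.16-fold, 0.011), where 12.6% were called. With all probe sets tested, both calls were lost (0.16 and 0.1). Over P3 and P4 the difference was 0.28 ± 0.15 (0.51), which was not called. The P1 and P2 difference was lost without brain P1 replicate 1 (0.083), brain P1 replicate 2 (0.064) or brain P2 replicate 1 (0.08), and the P2 difference without brain P2 replicate 1 (0.89, adjusted p = 0.067).

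Slco3a1, a broadly expressed carrier of prostaglandins and thyroxine, had the narrowest range of the 5 members. Across the 21 arrays it lay between 8.72 (bone marrow P3) and 9.73 (brain P4, first array), with a range of 1.01, and P0 cells stood at 9.09 and 9.20. None of its 29 comparisons was called. The widest step between brain passages was 0.54 ± 0.21 at P4 relative to P3 (adjusted p = 0.25), carried by arrays of 9.73 and 9.16 at P4 against 8.88 and 8.91 at P3. Against P0 its change at brain P2 was 0.15, with a 95% interval of -0.34 to 0.64.

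Slco4a1, a carrier of thyroid hormones and taurocholate, was high at a single point. It read 6.66 and 6.39 at brain P1, against 4.91 and 5.21 in P0 cells, and between 4.27 and 5.16 on all other adapted arrays, so the 2 brain P1 arrays lay more than 1 log2 unit above the other 19. The difference from P0 was 1.47 ± 0.32 (2.76-fold), and with all probe sets tested, of which 0.293% were called, the adjusted p was 0.17. The P1 array of the second brain experiment read 4.61 and differed from the P1 arrays of the first by -1.91 ± 0.39 (adjusted p = 0.14; 0.201% of all probe sets called). From P1 to P2 of the first experiment the change was -1.89 ± 0.32 (adjusted p = 0.20), where limma called 0% of all probe sets and 2696 had an unadjusted p under 0.05. None of these passed the threshold.

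Slco1a6, a kidney member of the family that lies with Slco1a5 in the Slco1 gene cluster on chromosome 6, was near the floor of the arrays. It read between 3.09 and 4.13 on 16 of the 19 adapted arrays, against 3.76 and 3.71 in P0 cells. The other 3 adapted arrays were the second array of brain P3 (4.96), which has the highest floor of all, and the second brain experiment at P1 (5.22) and P2 (4.49). At P1 the second experiment stood 1.48 ± 0.49 above P0 (adjusted p = 0.79; 0% of all probe sets were called by limma, 1613 at an unadjusted p under 0.05) and 1.75 ± 0.49 above the first experiment (0.30). Second brain P1 was the array on which both Slco1a5 and Slco1a6 were highest. Over the 16 group means the 2 genes had r = 0.53, and over the 21 arrays r = 0.31. They are close relatives, and whether the probes of one also take up the RNA of the other was not tested.

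The members did not share a pattern. Over the 21 arrays the correlations between different members lay between -0.16 and 0.31, and that of Slco1a5 with Slco2a1, the 2 members that changed, was -0.03. Of the 5 members, 3 tested among the kept probe sets and 2 among all, 1 was called at brain P1, 1 at P2, 2 at P3 and 1 at P4 against P0, beside 4.71%, 11.3%, 0.599% and 0.931% of the kept probe sets, with Slco2a1 up at P1 to P3 and Slco1a5 down at P3 and P4. The other 10 family members with a probe set were all under 7.33 on each array. Slco2b1, expressed in liver and gut, lay between 4.00 and 4.96, and Slco1c1 and Slco1a4, the thyroxine and organic anion carriers of the blood-brain barrier, lay between 3.33 and 4.60 and between 2.42 and 3.81. Slco1a1 lay between 1.92 and 3.16, the liver gene Slco1b2 between 2.40 and 4.82, Slco5a1 between 3.39 and 4.26, Slco4c1 between 2.47 and 4.13, and the testis genes Slco6b1, Slco6c1 and Slco6d1 between 2.26 and 4.87. Values of different genes come from different probes and are not compared. None of these genes was called in any of the 29 comparisons among all probe sets.

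The genes whose group means followed Slco1a5 most closely among 7300 kept genes were Cadm1, a cell adhesion molecule (r = 0.83), Serinc3, a multipass membrane protein (0.81), and Prkaa2, the catalytic alpha 2 subunit of AMP-activated kinase (0.81). Cadm1 ranged from 5.64 on bone marrow P4 to 9.63 at brain P1, and Prkaa2 from 4.19 on bone marrow P3 to 8.13 at second brain P1, and both were low on all marrow arrays. Cadm1 parted from Slco1a5 at brain P4, where it stood at 8.02. The most opposite genes were Dglucy (r = -0.88), which was lowest at brain P2 (6.01) and highest on breast tissue (7.73), and Rer1, a retrieval receptor of the endoplasmic reticulum (-0.88). For Slco2a1 the closest were Reep6, a shaper of the endoplasmic reticulum (r = 0.85), Zfr (0.79) and Arntl, a core clock factor (0.79), and the most opposite Rnaseh2c (-0.85) and H1f5, a linker histone (-0.83). Reep6 peaked at the same point as Slco2a1, at 11.21 at brain P2, against 7.64 in P0 cells. For Slco4a1 the closest were Gclc, the rate-limiting enzyme of glutathione synthesis (0.89), Med14 (0.87) and Arf2 (0.85), and the most opposite Gpbp1l1 (-0.86) and Rab8b (-0.85). For Slco3a1 they were Zfp704 (0.89), Plpp3 (0.85) and Cmtm8 (0.85), against Rps13 and Cops2 (both -0.87), and for Slco1a6 they were Adar (0.83), Sec23a (0.83) and Trabd2b (0.82), against Ing1 (-0.81) and Sub1 (-0.80). These correlations are over 16 group means that share arrays, scaling and line, and the highest of so many are high by selection.

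**Figure D3:**
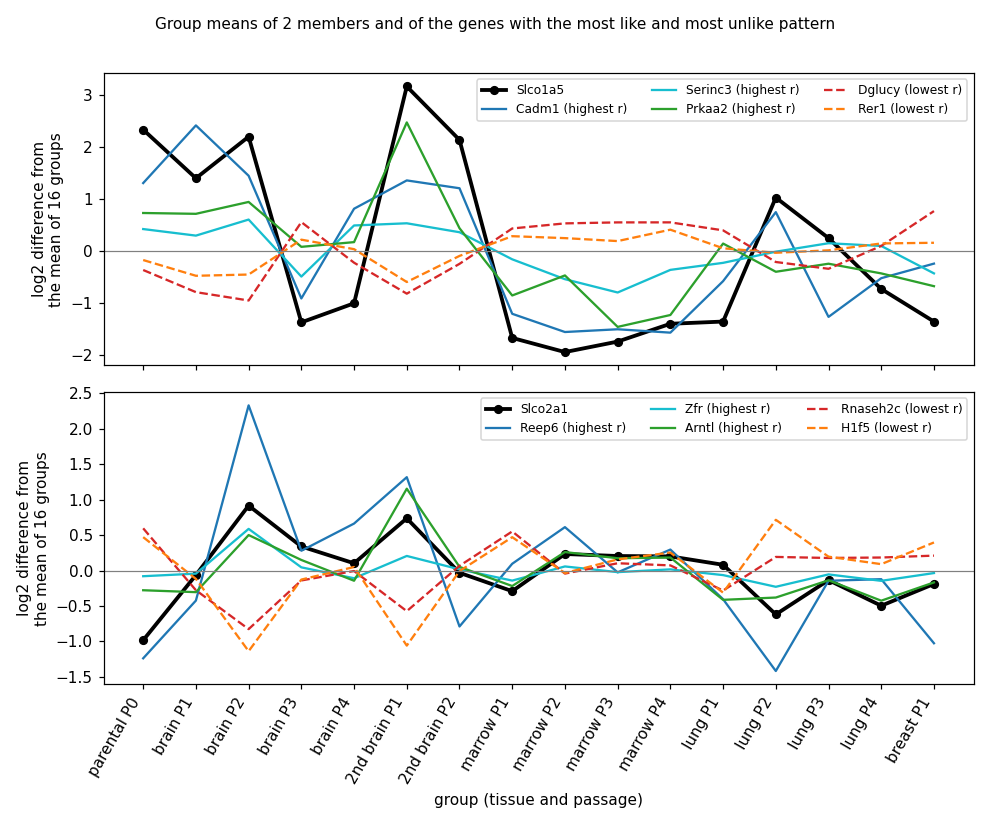
Group means of Slco1a5 (upper panel) and Slco2a1 (lower panel) in black, with the 3 genes of highest and the 2 of lowest correlation to each, as log2 differences from each gene's mean over the 16 groups on the x axis. Cadm1 and Prkaa2 share the low marrow values of Slco1a5, and Reep6 shares the P2 peak of Slco2a1.

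Slco1a5 was also set beside the genes next to it on chromosome 6, a comparison added after its values were seen. Of the 6 kept genes on either side, in RefSeq order, 7 of 12 were called between late and early brain cells, against 23.9% of all kept probe sets. On one side Pyroxd1 (-0.51), Cmas (-1.16), C2cd5 (-1.23) and Etnk1 (-1.22) were lower in late brain cells, and on the other Mgst1, a microsomal glutathione transferase (-1.44), and Eps8 (-0.54) were lower and Arhgdib higher (2.87). The median of the 12 was -0.52, beside -0.16 for 337 chromosome 6 genes and -0.07 for all kept probe sets, and each of the 12 changed less than Slco1a5 (-2.99). Against P0, none of the 12 was called on marrow or on lung over P2 to P4, where the changes of Slco1a5 were -4.03 and -2.15. Of all kept probe sets, only 0.428% were called there on marrow and 0.171% on lung. With so few calls, the lack of a call among 12 genes cannot by itself tell whether the neighbours moved with Slco1a5. Their median change was -0.04 on marrow, beside -0.06 for the 337 chromosome 6 genes. On lung it was -0.11, beside -0.09. The median neighbour thus stayed near the chromosome median there and did not share the fall of Slco1a5, which leaves single neighbours undecided. At P2, brain against marrow and lung, 3 of the 12 were called, beside 12.6% of the kept probe sets: Mgst1 (1.73) and Etnk1 (0.95) were higher on brain, as was Slco1a5, and Arhgdib was lower (-2.03). With the median of each chromosome subtracted on each array, the late against early difference of Slco1a5 was still called. That step removes 1 median for the whole chromosome, small beside the change of Slco1a5, and leaves in place any change limited to this stretch. A cause by position was not tested.

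**Figure D4:**
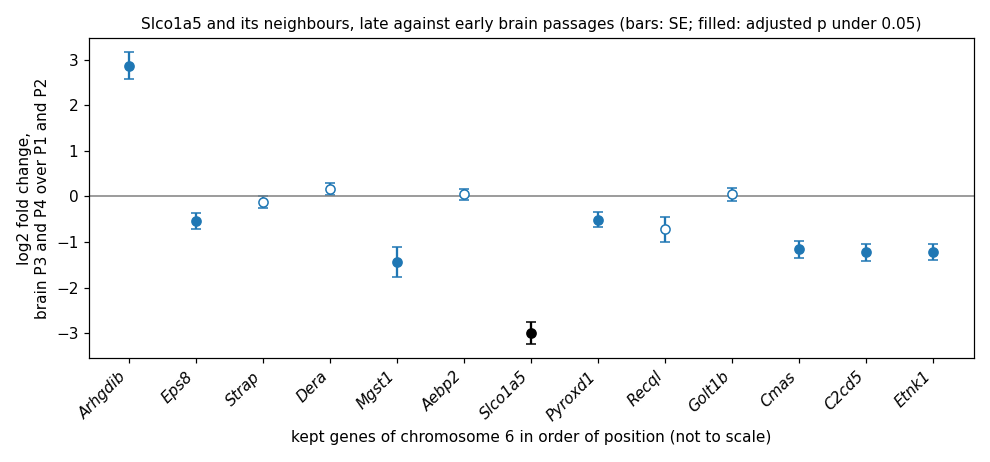
Log2 fold change in late (P3 and P4) over early (P1 and P2) brain cells for Slco1a5 (black) and 6 kept genes on either side in their order on chromosome 6, not to scale; bars are standard errors and filled points have an adjusted p under 0.05. Slco1a5 lies lowest at -2.99, and its neighbours lie between -1.44 and 2.87.

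Genes that work beside these carriers were read from lists. For prostaglandin synthesis and breakdown, the pathway of the Slco2a1 substrates, 6 of 17 genes passed the filter. At brain P1, where 4.71% of the kept probe sets were called, 2 of the 6 rose and 0 fell: Akr1c18, a reductase of prostaglandins and progesterone, by 4.67 ± 0.51 (adjusted p = 0.0017) against a P0 mean of 3.99, and Ptgs2, the inducible cyclooxygenase, by 2.88 ± 0.67 (0.046) against a P0 mean of 9.32. Akr1c18 reached the filter limit in brain P1 alone of the 16 groups, so it was in the tested set through the group in which it was called and the size of its change is taken from a level near the floor; with all probe sets tested the adjusted p was 0.024 for Akr1c18 and 0.24 for Ptgs2. At P2, where Slco2a1 peaked and 11.3% were called, 0 of the 6 were called (Akr1c18 1.31, adjusted p = 0.14; Ptgs2 0.15, 0.92). Of the 6, Akr1c18 alone was called at P3 (2.95, 0.046, and 0.32 with all probe sets tested), and 0 were called at P4 or over the marrow or lung passages. Akr1c18 was also higher in early brain than in early marrow and lung cells (3.02 ± 0.36, 0.00081, and 0.011 with all probe sets tested). That comparison holds brain P1, the group through which the gene passed the filter. Pla2g4a, the phospholipase that releases arachidonic acid, changed by 0.76 ± 0.23 at P1 (0.098). The median of the 6 was 0.55 at P1 and 0.16 at P2, beside -0.05 and -0.07 for all kept probe sets. None of the 10 prostaglandin receptor genes passed the filter.

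For the other lists, up to 3 genes each were named, those of lowest p at brain P1 or P2. Of all kept probe sets, 4.71% were called at brain P1 and 11.3% at P2. Late against early brain cells gave 23.9%, and early brain against early marrow and lung cells 20.5%. Of the thyroid hormone genes, 4 of 14 passed the filter. Only Slc7a5, an exchanger of large amino acids that also carries thyroid hormone, was called against P0, higher by 1.40 ± 0.22 at brain P2 (adjusted p = 0.0069). It was lower in late than in early brain cells (-1.55 ± 0.16, 0.00033) and higher in early brain than in early marrow and lung cells (1.29 ± 0.16, 9e-04). Klf9, a thyroid hormone target (0.61, 0.14), and Thra, a thyroid hormone receptor (-0.10, 0.76), were not called at P2, and Klf9 was 0.57 ± 0.16 higher in early brain than in early marrow and lung cells (0.041). Of the Slc22 organic ion carriers 2 of 14 passed, and Slc22a23 was higher at P2 (1.07 ± 0.24, 0.022) and lower in late than in early brain cells (-0.66 ± 0.17, 0.021), while Slc22a15 was not called (0.12, 0.83). Slc22a23 was also higher in early brain than in early marrow and lung cells (0.80 ± 0.17, 0.011). Of 12 efflux pumps only Abcc1, which exports glutathione and steroid conjugates, passed the filter, and it was not called (0.70 ± 0.23 at P1, 0.13). Among 3 conjugation genes of 11 that passed, Sult2b1, which adds sulphate to cholesterol and steroids, fell at P2 by 1.22 ± 0.30 (0.033) and was higher in late than in early brain cells (1.57 ± 0.21, 0.0013), whereas Ephx1 (0.53, 0.23) and Tpmt (0.11, 0.90) were not called. Sult2b1 was also lower in early brain than in early marrow and lung cells (-1.62 ± 0.21, 0.0012). Of 4 of 11 xenobiotic and bile acid receptor genes that passed, 0 were called against P0 at P1 or P2, Arnt (-0.62, 0.14), Ahr (-0.45, 0.20) and Rxrb (0.09, 0.93) at P1 among them. Arnt was lower in early brain than in early marrow and lung cells (-0.49 ± 0.15, 0.046). With all probe sets tested, the P2 calls of Slc7a5, Slc22a23 and Sult2b1 were lost (adjusted p = 0.072, 0.17 and 0.22). So were the late against early difference of Slc22a23 (0.13) and the early brain differences of Slc22a23 (0.081), Klf9 (0.21) and Arnt (0.24). The late against early differences of Slc7a5 (0.0059) and Sult2b1 (0.016) and the early brain differences of Slc7a5 (0.014) and Sult2b1 (0.015) were still called.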

How the data were processed

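The deposited values are log2 expression values per probe set of 21 Affymetrix Mouse Gene 1.0 ST arrays, which the authors made with RMA (background correction, quantile normalization and median polish). They were used without further scaling. The paper's filter on dim probe sets was replaced by keeping as many probe sets, those with the highest group mean. A mean per group was fitted with limma 3.58.1 in R 4.3.3, with moderated variances (residual degrees of freedom 5, prior 3.9, or 2.7 over all probe sets) and Benjamini-Hochberg adjustment over all probe sets tested. The fit was tested on simulated data. The number of arrays limits the precision. The members and gene lists were chosen with earlier results of these data known. Named were the members, the other Slco genes, the 3 most and 2 least correlated genes per member, the 3 genes of each list with the lowest p at brain P1 and P2, and the 2 brightest genes per cell type list, of which fewer are printed. Promoter windows and figures used Python 3.11.15 and matplotlib 3.10.9.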

Additional observations from a re-analysis of the deposited data

Results flagged for a closer look

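Slco1a5 differed between cells adapted to different tissues at the same passage. At P2 it was 2.66 higher on brain than on bone marrow and lung (log2, adjusted p = 0.0022 in limma). Slco2a1 differed in the same way, by 1.11 at P2 (adjusted p = 0.011) and by 0.57 over P1 and P2 (0.024). For both genes the comparison at P2 alone was added after the data were seen, and tissue cannot be told apart from adapted line. The 2 calls of Slco2a1 were lost under 3 of 11 and 5 of 12 alternatives, all probe sets tested among them (0.1 and 0.16). Of the kept probe sets, 12.6% were called at P2 and 20.5% over P1 and P2. Slco1a5 also differed between the 2 adaptations to brain at P1, by 1.77 in the second over the first (adjusted p = 0.04), a call lost under 6 of 11 alternatives, either first-experiment array left out and all probe sets tested (0.24) among them. These 4 differences were tested directly. No group held more than 2 arrays, so single arrays could not be tested for standing apart.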

How the results depend on the processing

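The second arrays of the 4 brain passages are labelled technical replicates, and their deviations from the passage means correlated between passages with r of 0.0979 to 0.357 over the kept probe sets, so the arrays share a number but are not shown to be paired. With them as a replicate block (chosen after seeing the data) no call was lost, and 2 members in place of 1 were called at brain P4 and at P3 over P2, and 1 in place of 0 at P2 over P1, Slco2a1 each time. The P1 levels of Slco1a5 on marrow and lung known beforehand enter no call here. The parental arrays they were set against enter all its calls against P0. Over the single results of the members, 677 kept their direction and side of the threshold under an alternative, 68 lost a call, 17 gained one, 22 uncalled values moved by more than 1 SE and 0 reversed. Without the 5 arrays with the highest floor (chosen after seeing the data; 1 residual degree of freedom is left), 0 members were called against P0 in any single group (lung P1, left without an array, has no value), and 0 at P3 over P2, over marrow or lung P2 to P4, between tissues at P2 or between experiments at P1. With no filter, 0 members were called at brain P1 and P4, at marrow P2, P3 and P4, at lung P4 and over lung P2 to P4, on breast tissue, at second brain P1 between experiments at P1 and between brain and the other tissues at P1 and P2, and 1 in place of 2 at brain P3, over marrow P2 to P4 and between brain and the other tissues at P2 alone. A stricter filter, cyclic loess or a robust variance trend each gave 2 in place of 1 at brain P4 and 1 in place of 0 at P2 over P1 and between experiments at P2; loess and the trend gave 2 in place of 1 at P3 over P2 and 0 in place of 1 at lung P4, over lung P2 to P4 and between experiments at P1; the stricter filter, the trend and chromosome medians gave 1 in place of 0 over marrow P1 to P4, and chromosome medians 0 over lung P2 to P4. At brain P1, equal medians, chromosome medians, a 2-fold limit and both experiments joined gave 0 in place of 1, the last also at P2; the 2-fold limit gave 0 in place of 1 between early brain and the other tissues. Leaving out 1 array gave 0 to 1 members where 1 was called and 1 to 2 where 2 were. The cause of these changes was not tested. Slco1a5 late against early brain was called under all 18 alternatives. Low signal over background limits Slco1a6, Slco4a1 and the low values of Slco1a5.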
